A study of Mus musculus with 6 samples.

Results

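The trans-synaptic and neuronal adhesion genes are 44 genes chosen by name, all of which were found among the 29547 rows of the deposited table. They fall into 9 groups by role: presynaptic organizers, their postsynaptic partners, latrophilins, teneurins, contactin-associated proteins, contactins, SynCAMs, the L1 and NCAM group, and IgLONs. The tissue was mouse vBNST, the ventral part of the bed nucleus of the stria terminalis, and the RNA was that pulled down with ribosomes by an antibody to phosphorylated S6, a ribosomal protein whose phosphorylation follows neuronal activity. There were 3 libraries labelled CS and 3 labelled Con, and the study asked which molecules in this nucleus respond to unpredictable threat. Tissue was taken 90 min after a test with a CS+ or a CS- cue, and the labels do not say which cue the CS libraries belong to or what the Con mice received. The antibody entry of the labels has a different catalogue number for every library, so antibody and library cannot be told apart if those entries are right. Strain, sex, age and pooling are not stated, nor whether each library is a separate animal, so p-values measure the spread between these libraries only.

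Synaptic adhesion proteins span the cleft between neurons and set where a synapse forms and which receptors it holds. Neurexins and receptor phosphatases of the LAR type sit on the axon and bind neuroligins, LRRTM, SLITRK and other proteins across the cleft, while latrophilins bind teneurins and FLRT proteins. Contactins, their associated proteins, SynCAMs, NCAM, the L1 group and IgLONs hold axons, glia and synapses together through immunoglobulin-type domains or partners that carry them.

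None of the 44 genes passed the test between CS and Con in the whole-table fit. The median log2 fold change was 0.04 over the 44 genes and 0.03 over all 20550 rows tested, with 26 genes above 0 and 18 below. These figures depend on single libraries and on the filter: 17 genes lay above 0 and 27 below without CS library 2 (median -0.09, against 0.05 over all rows) and with no filter on low values (-0.04, against 0.04), and 20 lay above and 24 below without Con library 2 (-0.02, against 0.04). The genes with the smallest p were Lrrtm1, Ptprd, Lrrtm3, Ntm and Adgrl2, all with lower values in CS, and Cntnap4 had the smallest p of those with higher values in CS. Each fold change here is CS minus Con on the scale of log2(RPKM + 0.1), where RPKM is the read number normalised for exonic length and for the assigned reads of the library, after median scaling, which sets the median deviation of each library to 0. Levels are RPKM after the same scaling, and p-values are from limma with Benjamini-Hochberg adjustment over all 20550 rows at a threshold of 0.05, at which 0.968% of all rows were called.

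At an unadjusted p under 0.05, 5 adhesion genes were lower and 0 higher, against 12.5% of all rows in either direction. After median scaling the 3 CS libraries lay all above the Con libraries for 4 genes and all below them for 5, against 23.0% of all rows in either direction. Which genes separate depends on the scaling. In the RPKM as deposited the groups of Ntm and Adgrl3 overlapped, and CS lay wholly below Con only for Lrrtm1, Ptprd and Adgrl2. It lay wholly above Con for Nrxn3, Cntnap4, Cntn4 and Ncam2, as after median scaling. The same held for Ptprs, Ncam1, Nrcam, Tenm4, Cadm1, Lrrtm4, Cntn1, Cntnap1, Cntnap2 and Cntnap5a, whose groups overlapped after median scaling. Without that scaling 13648 of all 20550 rows had an estimate above 0, and the share of all rows that separate was not computed. A count-based model, limma voom on the reads recovered from the table, was run on the 10463 rows with at least 60 reads, which hold 41 of the 44 genes. With median scaling it called 4 of these genes lower in CS and 0 higher: Ptprd, Lrrtm1, Lrrtm3 and Ntm. It called 6.29% of all such rows lower. With scaling by library totals it called 0 of the 41 genes (limma voom), against 5.02% of all rows in either direction, and at an unadjusted p under 0.05 with median scaling it had 8 lower and 1 higher, against 19.5% of all rows in either direction. With 1 library left out, voom called Ptprd and Lrrtm3 without CS library 1 and without Con library 1, Ptprd alone without CS library 2 and without CS library 3, 3 genes (Ptprd, Lrrtm1 and Ntm) without Con library 2, and 0 without Con library 3.

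**Figure D1:**
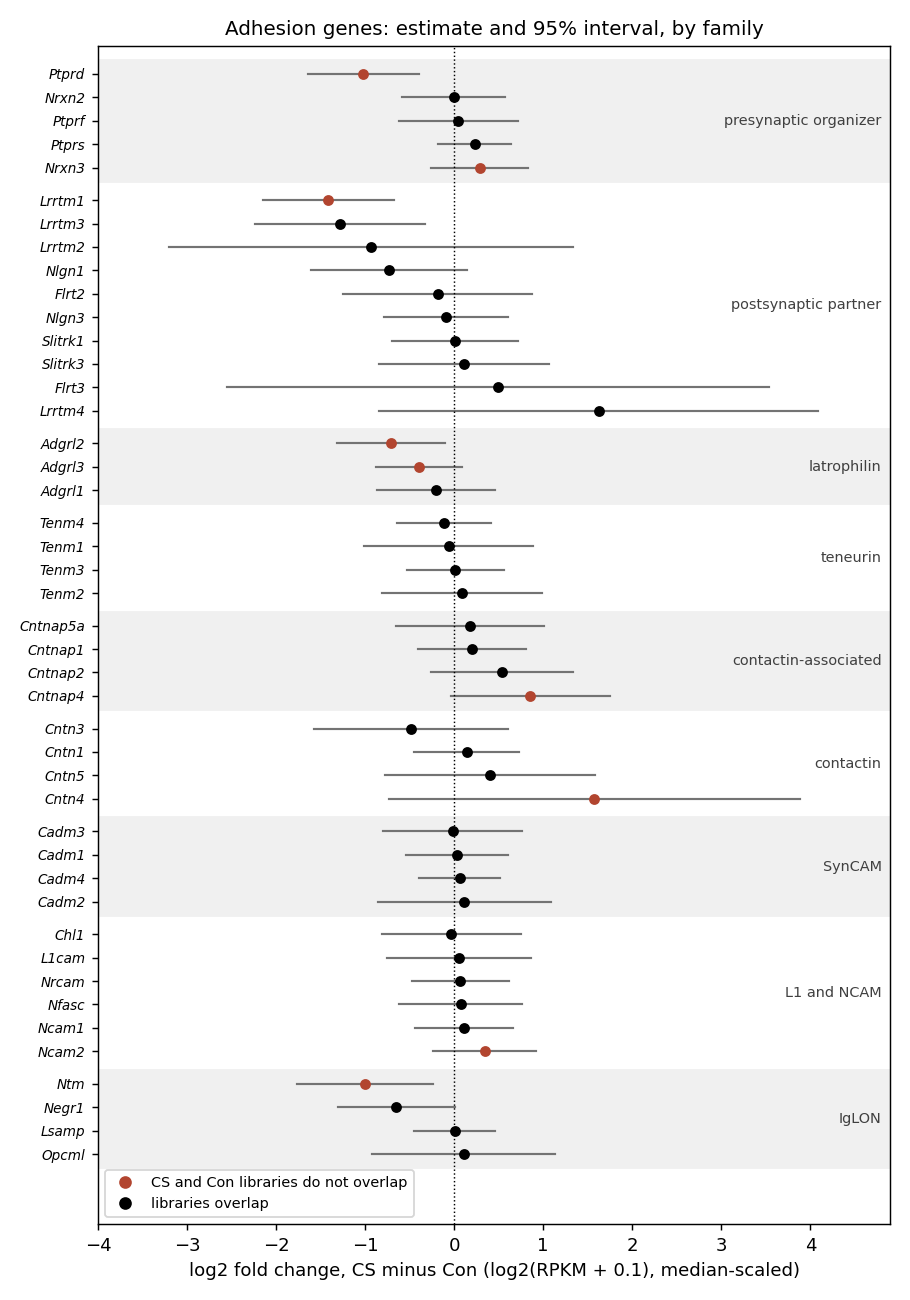
Log2 fold change, CS minus Con, of each of the 44 adhesion genes with its 95% interval from limma, grouped by role. Red points mark genes whose 3 CS libraries lie all above or all below the 3 Con libraries after median scaling. The intervals of 5 genes lie wholly below 0, those of Lrrtm1, Ptprd, Lrrtm3, Ntm and Adgrl2, and no interval lies wholly above 0.

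The libraries held between 1365181 and 2342686 assigned reads in CS and between 765769 and 1427784 in Con. The median adhesion gene had between 72.5 and 108.5 reads per CS library and between 33.5 and 52.5 per Con library. The 44 genes together took between 0.324% and 0.381% of the assigned reads in CS, against between 0.290% and 0.318% in Con. Their summed RPKM after median scaling lay the other way round, at 355, 395 and 319 in CS and 427, 386 and 455 in Con, with overlap, so the order of the groups depends on the measure. It also depends on Lrrtm3: without that gene the sums were 291, 360 and 293 in CS and 365, 281 and 327 in Con, which are interleaved. The RNA was pulled down with phosphorylated S6, and the series holds no input library. Fewer cells of a type, less RNA per cell and a difference in the pull-down thus cannot be told apart.

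Among the 5 presynaptic organizers, 3 estimates lay above 0 and 2 below, and Ptprd had the lowest. Ptprd encodes the receptor phosphatase PTPdelta, which binds SLITRK proteins and interleukin-1 receptor accessory proteins across the cleft, and lies at chr4:75941238-78211961 of GRCm38. It had 3.49, 2.55 and 3.69 RPKM in CS libraries 1 to 3, against 6.42, 6.14 and 7.19 RPKM in Con libraries 1 to 3. Every CS library lay below every Con library, and the CS mean was 0.493 times the Con mean. The log2 fold change was -1.02 ± 0.26 SE on 467 reads in CS and 452 in Con (limma adjusted p = 0.158), and voom gave -1.01 ± 0.20 (limma voom adjusted p = 0.0135, between 0.00957 and 0.0612 with 1 library left out).

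Ptprs, which encodes the receptor phosphatase PTPsigma, had 21.3, 25.2 and 23.4 RPKM in CS and 23.1, 17.7 and 18.9 RPKM in Con. The groups of Ptprs overlapped after median scaling, with a log2 fold change of 0.23 ± 0.17 SE. As deposited they did not, at 23.7, 28.3 and 28.2 RPKM in CS and 20.4, 17.2 and 15.4 RPKM in Con. Nrxn3, a neurexin, had 5.20, 5.23 and 4.83 RPKM in CS and 4.34, 4.29 and 3.77 RPKM in Con. All CS values of Nrxn3 were above all Con values, and the gene did not pass (log2 fold change 0.29 ± 0.23 SE, limma adjusted p = 0.683). Ptprf, the third of these phosphatases, and Nrxn2 averaged 6.35 ± 1.76 and 12.7 ± 2.89 RPKM in CS, against 6.02 ± 0.973 and 12.7 ± 2.37 RPKM in Con (SD, n = 3 each, as for every mean ± SD here).

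The ratio of 2 genes within a library does not depend on how libraries are scaled. The log2 ratio of Ptprd to Ptprs was -2.58, -3.26 and -2.64 in CS and -1.83, -1.52 and -1.38 in Con. The ratio was thus lower in each CS library, by 1.25 on average, as was that of Ptprd to Nrxn3, with -0.56, -1.01 and -0.38 in CS and 0.55, 0.50 and 0.91 in Con. Each gave an exact two-sided permutation p of 0.1, the smallest that 3 against 3 libraries allow. Of 103 such ratios between genes of 1 group, 26 had groups that did not overlap, and the lowest adjusted p was 0.396 by Benjamini-Hochberg over the 103 exact permutation tests. For a single ratio 10% of the ways to split the libraries give no overlap, and the share over pairs of other rows was not computed. The gene with the lower fold change was put first in each ratio, so the direction of these ratios was set beforehand. Ratios that share a gene are not independent, and those printed were chosen after their values were seen.

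**Figure D2:**
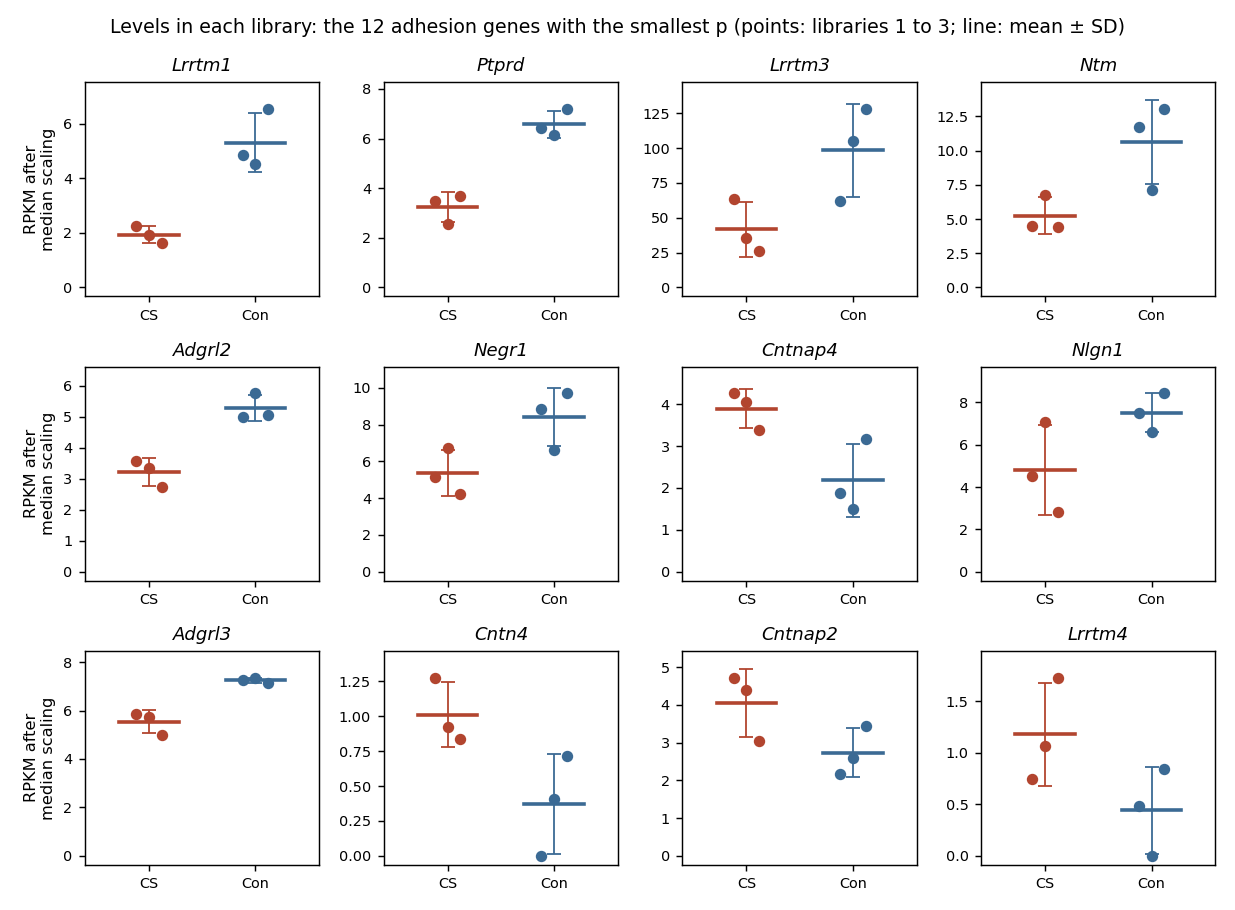
RPKM after median scaling in each CS library (left, red) and each Con library (right, blue) for the 12 adhesion genes with the smallest p, with the mean and SD of each group. CS lies wholly below Con for Lrrtm1, Ptprd, Ntm, Adgrl2 and Adgrl3 and wholly above it for Cntnap4 and Cntn4, while Lrrtm3, Negr1, Nlgn1, Cntnap2 and Lrrtm4 overlap.

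Of the 10 postsynaptic partners 4 had an estimate above 0 and 6 below, and the LRRTM genes lay on both sides. LRRTM proteins carry leucine-rich repeats and bind neurexins from the dendrite. Lrrtm1, at chr6:77242689-77257791, had 2.25, 1.94 and 1.63 RPKM in CS, against 4.88, 4.53 and 6.55 RPKM in Con. All CS values lay below all Con values, on only 35 reads in CS and 49 in Con. Its log2 fold change of -1.41 ± 0.31 SE had the smallest p of the 44 genes (limma adjusted p = 0.106), and voom gave -1.50 ± 0.39 (limma voom adjusted p = 0.0417, and 0.0928 with library totals). In the log2 RPKM model on rows with at least 60 reads, Lrrtm1 was the 1 adhesion gene called, against 4.09% of all rows in either direction.

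Lrrtm3, at chr10:63928472-64090277, had the highest level per length of all 44 genes when averaged over the 6 libraries. It had 63.4, 35.2 and 26.2 RPKM in CS, against 62.3, 105 and 128 RPKM in Con. Before median scaling CS library 1 lay further above Con library 1, at 70.5 and 55.0 RPKM. After it the groups met at 1 point, with CS library 1 just above Con library 1, and both groups spread widely. The log2 fold change was -1.28 ± 0.40 SE (limma adjusted p = 0.246), and voom gave -1.31 ± 0.34 (limma voom adjusted p = 0.0418, and 0.0706 with library totals). With 1 library left out the voom adjusted p of Lrrtm3 lay between 8.90e-05 and 0.185.

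The other LRRTM genes were near the limit of detection. Lrrtm4 had 0.741, 1.06 and 1.73 RPKM in CS, against 0.481, 0 and 0.843 RPKM in Con, on 48 and 8 reads. Lrrtm2 had 0.101, 0.922 and 1.13 RPKM in CS and 2.09, 0.607 and 0.914 RPKM in Con, on 27 and 18 reads. Both had overlapping groups and standard errors near or above 1 on the log2 scale, 1.03 for Lrrtm4 and 0.95 for Lrrtm2. Exons of Lrrtm4 overlap those of Gm4409 on the opposite strand over 1543 bases, and Gm4409 held 39 reads against 56 for Lrrtm4.

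Nlgn1, which encodes the neuroligin of excitatory synapses, had 4.54, 7.05 and 2.80 RPKM in CS and 7.49, 6.59 and 8.43 RPKM in Con. CS library 2 lay among the Con values, and the gene did not pass (log2 fold change -0.73 ± 0.37 SE, limma adjusted p = 0.478). Its exons overlap over 1229 bases with A830092H15Rik on the opposite strand, which held 564 reads against 660 for Nlgn1, and how many reads they share was not measured. Nlgn3, a neuroligin of both excitatory and inhibitory synapses, had 4.14 ± 0.284 RPKM in CS and 4.49 ± 1.14 RPKM in Con, with 41.2% of its exonic length shared with Gm21986 on the same strand.

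The remaining postsynaptic partners showed estimates close to 0 or too few reads to tell. Slitrk1, a partner of the receptor phosphatases, averaged 4.21 ± 0.876 RPKM in CS and 4.17 ± 0.929 RPKM in Con. Slitrk3, a SLITRK of inhibitory synapses, averaged 2.10 ± 0.625 RPKM in CS and 1.85 ± 0.0954 RPKM in Con. Flrt2, which encodes a latrophilin ligand, averaged 2.09 ± 0.579 RPKM in CS and 2.42 ± 0.872 RPKM in Con. Its paralog Flrt3 had no read in Con library 1, and its log2 fold change of 0.49 ± 1.27 SE has the opposite sign to the difference of its means, 1.14 RPKM in CS and 1.36 RPKM in Con.

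Upstream sequences are shown for the genes called lower by voom that have an entry among the promoters of RefSeq (build GRCm38.p6), so that their starts can be compared. Each run is the 250 bases before a start given there, 5′ to 3′ on the strand of the gene. Ntm has 2 starts in that table, of which 1 is shown, and the run lies inside the gene as the deposited row bounds it. Capitals would mark a motif found in the run, and none of the runs holds one.
Lrrtm1, chr6:77242227-77242476, plus strand: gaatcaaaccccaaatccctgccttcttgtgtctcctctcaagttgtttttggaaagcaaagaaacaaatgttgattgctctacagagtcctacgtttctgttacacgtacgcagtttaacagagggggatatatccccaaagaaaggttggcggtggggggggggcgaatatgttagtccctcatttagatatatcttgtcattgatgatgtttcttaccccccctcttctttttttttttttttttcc
Lrrtm3, chr10:64090256-64090505, minus strand: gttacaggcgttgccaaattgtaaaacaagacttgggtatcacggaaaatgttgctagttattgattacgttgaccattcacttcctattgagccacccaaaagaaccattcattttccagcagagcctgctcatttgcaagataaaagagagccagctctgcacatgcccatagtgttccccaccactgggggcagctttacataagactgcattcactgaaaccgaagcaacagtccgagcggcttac
Ntm, chr9:29413453-29413702, minus strand: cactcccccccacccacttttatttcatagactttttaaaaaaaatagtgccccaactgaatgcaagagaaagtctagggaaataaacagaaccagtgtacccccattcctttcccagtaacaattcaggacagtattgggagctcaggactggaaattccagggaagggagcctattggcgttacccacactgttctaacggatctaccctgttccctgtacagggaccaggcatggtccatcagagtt
The motifs searched on both strands, over the 250 bases before and 50 after each start, were those of factors that act downstream of neuronal activity: CRE (TGACGTCA), AP-1 (TGANTCA) and the Egr site (GCGNGGGCG). CRE was found in 2 of the 35 adhesion genes that matched (Ptprs and Tenm3) and 2.03% of all genes in the table. AP-1 was found in 3 (Cadm3, Cntn4 and Nrxn3) and 8.97%, and the Egr site in 3 (Ncam2, Ntm at its other start, and Ptprf) and 6.27%. The 250 bases before Lrrtm1 are 42% G or C and those before Lrrtm3 46%, against a median of 52.8% over the whole windows of all genes and of 53.2% over those of the adhesion genes.

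The latrophilins are adhesion G protein-coupled receptors that bind teneurins and FLRT proteins. Adgrl2, at chr3:148815583-148990555, had 3.57, 3.36 and 2.72 RPKM in CS, against 5.0, 5.75 and 5.05 RPKM in Con. Adgrl3 had 5.87, 5.74 and 4.99 RPKM in CS, against 7.25, 7.36 and 7.15 RPKM in Con. For both genes every CS library lay below every Con library after median scaling, with log2 fold changes of -0.71 ± 0.25 SE and -0.39 ± 0.20 SE that did not pass (limma adjusted p = 0.319 and 0.49). As deposited Adgrl3 overlapped, at 6.53, 6.44 and 6.01 RPKM in CS and 6.40, 7.13 and 5.80 RPKM in Con. Adgrl1, the most abundant of them, had 24.1, 36.1 and 23.2 RPKM in CS and 37.5, 22.5 and 36.7 RPKM in Con, with a log2 fold change of -0.21 ± 0.28 SE. In the RPKM as deposited, before median scaling, Adgrl1 lay at 0.17 and Adgrl3 at -0.02, so the direction of Adgrl1 turns with the scaling.

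The teneurins, which bind latrophilins from the other side, had estimates between -0.11 (Tenm4) and 0.09 (Tenm2). Tenm3 averaged 7.99 ± 0.992 RPKM in CS and 7.94 ± 1.53 RPKM in Con. Tenm4 averaged 4.89 ± 0.0855 RPKM in CS and 5.29 ± 0.462 RPKM in Con, with a 95% interval of the log2 fold change from -0.64 to 0.41. Tenm1 and Tenm2 averaged 1.88 and 2.93 RPKM in CS, against 1.99 and 2.72 RPKM in Con.

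The 4 contactin-associated protein genes chosen here had estimates above 0 with median scaling, with quantile normalization and as deposited, and none passed the test. Of all 20550 rows, 10685 lay above 0 with median scaling, 11586 with quantile normalization and 13648 as deposited. Other genes of this family, from the further list described below, lay on both sides of 0. Cntnap5c was lower in CS (-1.23 ± 0.33 SE, limma adjusted p = 0.175, limma voom adjusted p = 0.0352). Cntnap3 (0.25 ± 0.66 SE) and Cntnap5b (0.17 ± 0.44 SE) lay above 0. Cntnap4, known from interneurons, had 4.26, 4.05 and 3.38 RPKM in CS, against 1.88, 1.5 and 3.16 RPKM in Con, at chr8:112570043-112882717. Each CS library was above each Con library, by a narrow margin over Con library 3 (log2 fold change 0.86 ± 0.37 SE, limma adjusted p = 0.42). With library totals voom gave 1.17 (limma voom adjusted p = 0.0607).

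Cntnap2 encodes CASPR2, which gathers potassium channels beside the node of Ranvier, and had 4.72, 4.4 and 3.04 RPKM in CS and 2.16, 2.60 and 3.45 RPKM in Con. After median scaling its CS library 3 lay below Con library 3 (0.54 ± 0.33 SE, limma adjusted p = 0.58). As deposited the groups of Cntnap2 did not overlap, at 5.25, 4.93 and 3.67 RPKM in CS and 1.91, 2.52 and 2.80 RPKM in Con. Cntnap1, the paranodal CASPR, had 6.11, 7.67 and 4.94 RPKM in CS and 5.79, 4.83 and 5.29 RPKM in Con. Cntnap5a averaged 2.35 ± 0.371 RPKM in CS and 2.04 ± 0.339 RPKM in Con.

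The contactins are immunoglobulin proteins on a lipid anchor, and their levels rested on few reads apart from Cntn1. Cntn1, the paranodal partner of CASPR, averaged 7.09 ± 1.5 RPKM in CS and 6.34 ± 0.790 RPKM in Con. Cntn4 had 1.28, 0.923 and 0.835 RPKM in CS, against 0, 0.405 and 0.712 RPKM in Con. These are 51 reads in CS and 11 in Con, all CS values lay above the Con values, and the 95% interval of the log2 fold change ran from -0.73 to 3.88. Cntn3 had 1.78, 1.16 and 1.05 RPKM in CS and 1.54, 2.55 and 1.54 RPKM in Con. Cntn5 had 2.51, 2.16 and 4.14 RPKM in CS and 2.61, 1.14 and 3.05 RPKM in Con. Both had overlapping groups and 95% intervals wider than 2 log2 units, from -1.58 to 0.61 for Cntn3 and from -0.78 to 1.59 for Cntn5.

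The SynCAM genes, which encode homophilic and heterophilic synaptic adhesion molecules, had the narrowest range of estimates of the 9 groups, between -0.02 and 0.11. Cadm4 had the second highest level of the 44 genes, 60.2 ± 6.96 RPKM in CS and 58.0 ± 11.4 RPKM in Con (SD, n = 3 each). Cadm1, Cadm2 and Cadm3 averaged 4.42, 2.14 and 6.59 RPKM in CS, against 4.32, 2.03 and 6.79 RPKM in Con. The 95% interval of Cadm4 ran from -0.39 to 0.52 and that of Cadm1 from -0.54 to 0.61.

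Of the L1 and NCAM group, Ncam2 was the only gene whose libraries did not overlap between groups after median scaling. It had 7.67, 7.63 and 8.56 RPKM in CS, against 6.96, 7.25 and 4.76 RPKM in Con (log2 fold change 0.34 ± 0.24 SE, limma adjusted p = 0.632). Ncam1, the classical neural cell adhesion molecule, averaged 12.5 ± 2.53 RPKM in CS and 11.5 ± 1.93 RPKM in Con. Nfasc, Nrcam, L1cam and Chl1, whose proteins tie the membrane to ankyrin at axons and nodes, had estimates between -0.03 (Chl1) and 0.07 (Nfasc). Nfasc averaged 9.73 ± 3.36 RPKM in CS and 8.94 ± 1.21 RPKM in Con, and Nrcam 5.10 ± 0.221 and 4.85 ± 0.573 RPKM in the same order.

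The IgLONs, small immunoglobulin proteins on a lipid anchor, had 2 estimates above 0 and 2 below. Ntm, which encodes neurotrimin at chr9:28994750-29963141, had 4.51, 6.79 and 4.38 RPKM in CS, against 11.7, 7.12 and 13.0 RPKM in Con. After median scaling all CS values lay below the Con values, with CS library 2 and Con library 2 close together (log2 fold change -1.0 ± 0.32 SE, limma adjusted p = 0.261, limma voom adjusted p = 0.0495, and 0.125 with library totals). As deposited Ntm overlapped, with 7.62 RPKM in CS library 2 and 6.91 RPKM in Con library 2. Negr1 had 5.15, 6.71 and 4.25 RPKM in CS and 8.87, 6.62 and 9.70 RPKM in Con. Its CS library 2 lay just above Con library 2 (-0.65 ± 0.27 SE, limma adjusted p = 0.403).

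Lsamp, which encodes limbic system-associated membrane protein, had the most reads of all 44 genes, 2714 in CS and 1290 in Con. Chosen after its values were seen, as the gene with the most reads, it had 22.7, 27.8 and 26.6 RPKM in CS, against 30.8, 21.2 and 25.4 RPKM in Con, with a 95% interval of the log2 fold change from -0.45 to 0.46. Opcml averaged 2.21 ± 0.446 RPKM in CS and 2.09 ± 0.817 RPKM in Con. The log2 ratio of Ntm to Lsamp was -2.31, -2.02 and -2.58 in CS and -1.38, -1.56 and -0.96 in Con, a difference of -1.0 with no overlap (exact two-sided permutation p = 0.1, n = 3 each, adjusted p = 0.396). The ratio of Ntm to Opcml was also lower in each CS library, by 1.10 on average.

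The adhesion genes were long, and estimates of both signs occurred among long and short ones. Their median exonic length was 8897 bases, against 2743.5 over all rows tested, and 30 of them span over 100 kb of the genome, against 10.4% of all rows tested. The 22 genes at or above the median length had a median log2 fold change of 0.01, and the 22 shorter ones 0.07. The difference of -0.06 was smaller than its spread between libraries, 0.18. At the same split, all tested rows had a median of 0.05 over 1586 long rows and 0.03 over 18964 short rows. When genes were split by genomic span at 304.7 kb the medians were 0.06 for the long and 0.03 for the short, so the order turned round.

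Across the 44 genes the log2 fold change and the length had a Spearman rho of -0.20 and a Pearson r of -0.05 with log10 length, and for genomic span the values were 0.17 and 0.17. Genes are not independent replicates and share the 6 libraries. Of the genes with the lowest estimates, Lrrtm1 and Lrrtm3 have 3033 and 4251 exonic bases and Ptprd has 22822, and of those with the highest, Lrrtm4 has 6147 and Cntn4 has 8486. Length went with the spread of the estimates over all rows. The middle 50% of rows lay between -2.24 and 1.88 among the 2061 shortest rows and between -0.33 and 0.26 among the 2055 longest, which hold 25 of the 44 genes.

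**Figure D3:**
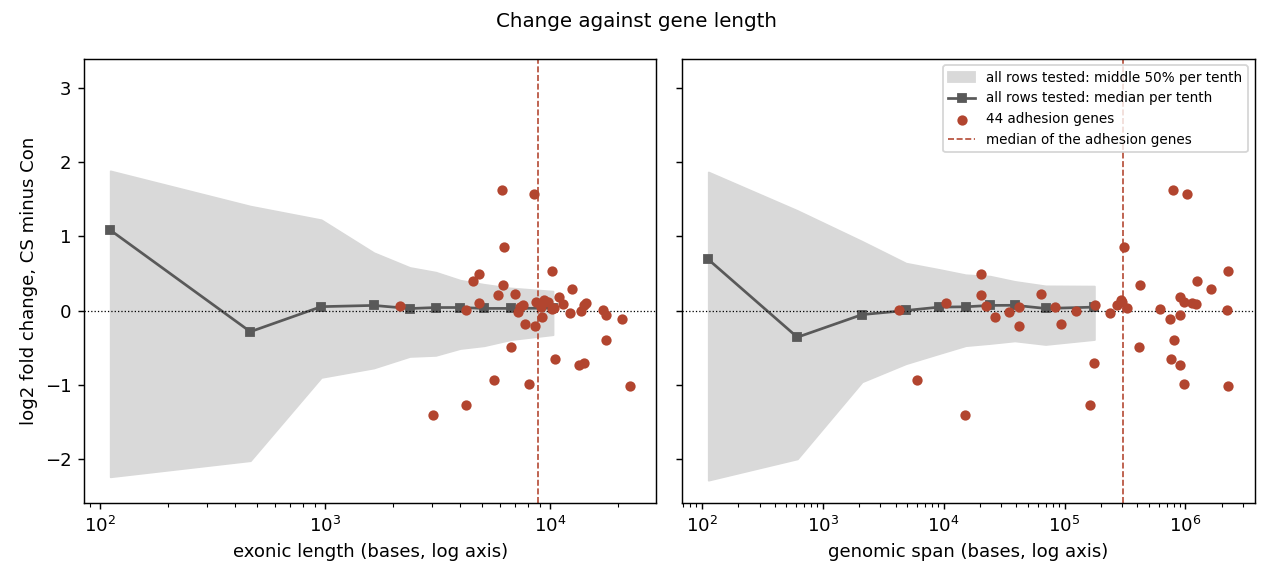
Log2 fold change, CS minus Con, of the 44 adhesion genes (red) against exonic length on the left and genomic span on the right, both on log axes, with the median and middle 50% of all rows tested in bins of length (grey). The adhesion genes lie on both sides of 0 over the whole range of length, and the grey band narrows from between -2.24 and 1.88 to between -0.33 and 0.26 as exonic length grows.

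Levels per length, given as RPKM over all 6 libraries, ran from 70.0 for Lrrtm3, 59.1 for Cadm4, 30.0 for Adgrl1, 25.8 for Lsamp and 21.6 for Ptprs down to 0.809 for Lrrtm4 and 0.692 for Cntn4. Of the 44 genes 32 lay above the median of all rows tested, 2.71 RPKM. In CS the difference between Lrrtm3 and Cadm4, at 41.6 ± 19.4 and 60.2 ± 6.96 RPKM, was within the SD of Lrrtm3, and in Con Lrrtm3 was the higher, at 98.5 ± 33.3 and 58.0 ± 11.4 RPKM. Adgrl1 and Lsamp were also within their spread in CS, at 27.8 ± 7.2 and 25.7 ± 2.69 RPKM.

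Leaving out the median scaling moved the estimates of all genes by the same amount. Quantile normalization moved single genes by unlike amounts, such as Lrrtm3 from -1.28 to -0.97 and Lrrtm4 from 1.62 to 1.35. As deposited, the median log2 fold change was 0.41 over the adhesion genes and 0.41 over all rows, and with quantile normalization it was 0.20 and 0.16. The adhesion median minus the median of all rows was 0.005 with median scaling and as deposited, 0.04 with quantile normalization and -0.02 with voom. As deposited 34 of 44 genes lay above 0, against 26 with median scaling, and the 8 whose sign turned were Adgrl1, Cadm3, Chl1, Flrt2, Nlgn3, Nrxn2, Tenm1 and Tenm4. Lrrtm1 (-1.04), Lrrtm3 (-0.91), Ptprd (-0.65) and Ntm (-0.63) stayed below 0 as deposited.

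**Figure D4:**
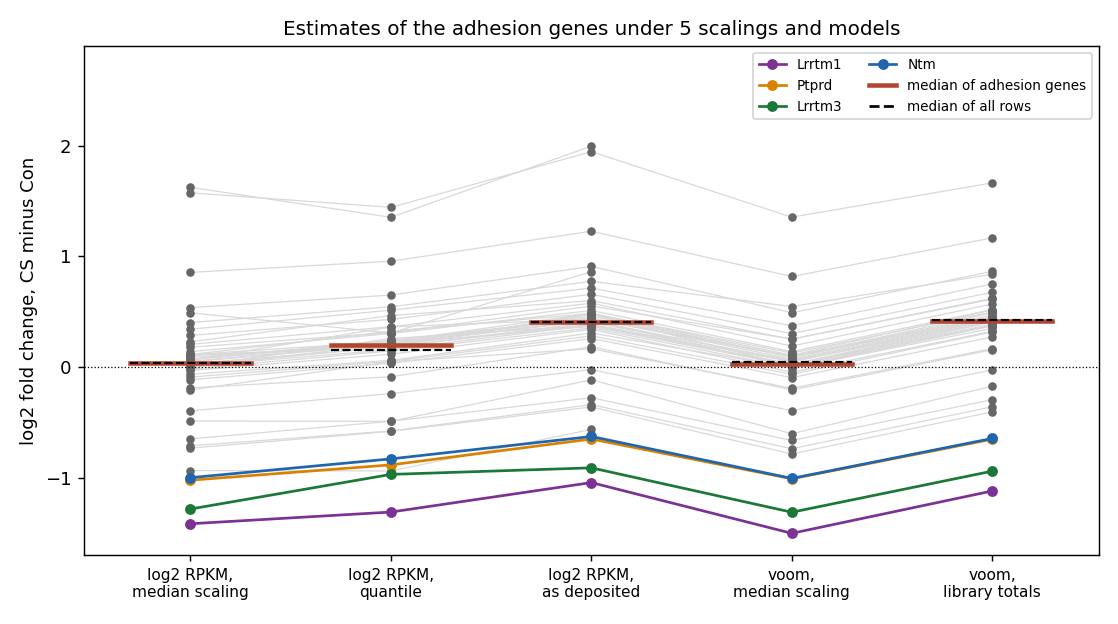
Log2 fold change, CS minus Con, of the adhesion genes under 5 combinations of scaling and model, with the median of the adhesion genes (red bar) and of all rows (dashed). The 2 medians move together, from 0.04 and 0.03 with median scaling to 0.41 and 0.41 as deposited, and Lrrtm1, Ptprd, Lrrtm3 and Ntm lie below 0 throughout.

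Of a list of 63 other adhesion genes, drawn up with earlier results of these data known, 59 were tested, with 29 estimates above and 30 below 0 and a median of -0.02. By limma 1 was called, lower, and by voom with median scaling 5 of 48 were lower and 0 higher, against 6.29% of all rows lower. With library totals voom had 2 lower and 1 higher, against 5.02% of all rows in either direction, and the 1 higher was Epb41l3 (limma voom adjusted p = 0.0247). The 1 called was Ptprg, another receptor phosphatase, which binds contactins, at chr14:11553532-12242041. It had 6.42, 8.07 and 6.07 RPKM in CS, against 17.5, 15.5 and 17.6 RPKM in Con (log2 fold change -1.30 ± 0.19 SE, limma adjusted p = 0.0419, between 0.0658 and 0.164 with 1 library left out, and 0.11 as deposited). Among the next by p were Lrfn1 (-1.09 ± 0.27 SE), which encodes a postsynaptic adhesion molecule, Cntnap5c (-1.23 ± 0.33) and Epb41l3 (0.57 ± 0.16), which encodes a membrane skeleton protein, and limma called none of these.

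Neuronal markers, 8 of 8 of them tested, summed to between 262 and 306 RPKM in CS and between 262 and 297 RPKM in Con, with 6 estimates above 0 and 2 below. The sum joins genes that moved in opposite directions. Syt1 had 34.8, 36.7 and 27.3 RPKM in CS and 66.3, 52.0 and 87.7 RPKM in Con. Gad1 had 9.47, 8.80 and 5.47 RPKM in CS and 3.48, 3.60 and 5.42 RPKM in Con. Of 8 oligodendrocyte markers 7 had an estimate below 0, and they summed to between 90.4 and 173 RPKM in CS, against between 182 and 316 RPKM in Con, without overlap. Oligodendrocyte precursor markers summed to between 7.2 and 16.3 RPKM in CS and between 12.7 and 21.8 RPKM in Con, with 2 of 3 estimates above 0. Microglial markers summed to between 32.1 and 40.3 RPKM in CS and between 38.0 and 58.9 RPKM in Con, with 5 of 8 estimates above 0 and a median log2 fold change of 0.31, so the sums and the estimates of these lists run in opposite directions. Astrocyte markers summed to between 88.8 and 113 RPKM in CS and between 88.5 and 115 RPKM in Con. Endothelial markers were low, between 1.85 and 3.66 RPKM in CS and between 3.25 and 7.54 RPKM in Con. No listed marker was without a read in all libraries, none was called by limma, and the part of other cell types in the adhesion results was not tested.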

How the data were processed

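Per the labels, RNA bound to ribosomes was precipitated with an antibody against phosphorylated S6, depleted of rRNA and made into stranded libraries. Per the submitters' processing notes, the authors trimmed reads with Trimmomatic 0.36, counted them with featureCounts of Subread 1.5.1 and named the builds GRCm38 and mm10; aligner and strand setting were not given in the sources used here. Values deposited by the authors are RPKM, in 1 table of 6 columns, with the exonic length of each row. RPKM times length gave whole reads for 100% of values above 0 (tolerance 0.01 read).

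Rows with a mean of at least 0.5 RPKM were tested in R 4.3.3 with limma 3.58.1 (eBayes with a variance trend) on log2(RPKM + 0.1) after median scaling, CS against Con, 3 libraries each. All 44 genes passed this filter. Alternatives were other scalings, pseudocounts, filters and variance models, voom on recovered reads, a replicate block and leaving out each library; voom with library totals or leaving out a library, and the 60-read filter on log2 RPKM, were added after seeing the data. The models were also run on simulated reads with the same dispersion for every gene, which does not test the choice of scaling. edgeR and DESeq2 were not run, and voom on the recovered reads was the only count-based model.

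The genes and lists were chosen with earlier results of these data known. Values in every library are given for the 20 genes with the smallest p and for Lsamp, and the remaining genes by group means. From the other adhesion genes the 1 called and the next 4 by p were to be named; some items are not reported here.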

Additional observations from a re-analysis of the deposited data

How the results depend on the processing

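The count of adhesion genes called stayed at 0 in either direction under median scaling, as deposited, with quantile normalization, log2(RPKM + 1), other RPKM filters, no variance trend and each library left out. It was 4 lower with voom and median scaling and 1 lower with the log2 RPKM model on rows with at least 60 reads. With voom the 4 became 0 with library totals, and between 0 and 3 with a library left out, at 0 without Con library 3. The median log2 fold change was 0.41 as deposited and 0.41 with voom on library totals. The long-minus-short difference moved by less than its spread under every alternative run. The labels do not say whether replicate numbers pair the libraries. Deviations of same-numbered libraries from their group means correlated at -0.40, -0.18 and -0.06, and those of different numbers between -0.14 and 0.31. These values show no sign of pairing but cannot exclude it, since deviations from a mean of 3 libraries are tied to each other. With the replicate block 0 rows were called higher and 0 lower over all rows, and voom with a block called 3 adhesion genes. Over all rows the counts, 36 higher and 163 lower, were 30 lower as deposited, 73 lower with quantile normalization, 87 lower with log2(RPKM + 1), 20 higher and 87 lower with no filter, 111 higher and 35 lower without the variance trend, 14 higher and 414 lower on rows with at least 60 reads, 658 lower with voom, and 272 higher and 253 lower with voom on library totals. With 1 library left out they ran from 0 to 52 higher and from 0 to 173 lower. Depth limits the genes with few reads: 3 of 44 had no read in at least 1 library, and the 95% interval lay within -1 and 1 on the log2 scale for 23 of 44. A gene outside that number can hold a 2-fold change that was not detectable here. edgeR and DESeq2 were planned on recovered reads and not run.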
